A study of Mus musculus with 14 samples.

Results

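The 42 genes described here are antiviral interferon-stimulated genes, transcripts that rise when interferons act on a cell and whose proteins sense, bind or block viruses. They were listed by symbol, and a listed gene was kept if its row was present in the deposited count table and had a mean of at least 1 CPM over all 14 libraries. All 42 of the 42 listed genes met this, out of 24982 genes in the table, and all 42 were also among the 13136 genes that passed the filter on low counts. Symbols are given in capitals as the table lists them. The libraries were made from macrophages sorted from the lamina propria of the colon and cecum of 5-week-old C57BL/6 mice, and the study asked whether loss of the chemokine receptor CCR2 changes gene expression in mature macrophages that lack the interleukin-10 receptor. The sort kept viable leukocytes (CD45+) with the macrophage marker CD64 as well as CD11b and MHCII, and left out those with Ly6G, CD103 or Ly6C. Each library came from a single mouse, so the tests set differences between genotypes against the spread between mice. All mice carried *Cdcs1*, a locus that makes C57BL/6 mice prone to colitis. The WT mice are labelled with this locus alone (4 mice: 4, 5, 10 and 13), the IL10RAKO mice as *Il10ra* -/- (4 mice: 1, 2, 7 and 8) and the DKO mice as *Il10ra* -/- and *Ccr2* -/- (4 mice: 3, 9, 12 and 14). The deletions were present in every cell of the mouse, so the labels do not separate an effect within macrophages from an effect of their surroundings. A further WT library (mouse 11) and the only CCR2KO library (*Ccr2* -/-, mouse 6) were left out of the fit behind the results below and are described apart, and mouse 11 was added in an alternative fit.

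Type I and type III interferons act through paired receptors and the kinases JAK1 and TYK2 on a complex with the factors STAT2 and IRF9 that binds the interferon-stimulated response element (ISRE) in the promoters of antiviral genes. Interferon gamma acts mainly through another element, the gamma-activated site (GAS), and it raises part of the same genes as well as guanylate-binding proteins and the chemokines CXCL9 and CXCL10. Interleukin-10 restrains the response of intestinal macrophages to microbes, and mice without its receptor develop colitis.

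Between 12153000 and 21216468 reads were counted on genes per library. Levels are given as CPM (counts scaled to a common library size) after scaling by TMM, a factor per library that edgeR estimates from the bulk of genes. Means are given ± SD over the 4 mice of a genotype, and CI stands for confidence interval. The TMM factors ran from 1.09 to 1.18 in WT, 0.85 to 0.97 in the IL10RAKO group and 0.89 to 1.01 in the DKO group, and the direction of small changes depended on this step where stated. IL10RA was at 217.0 to 379.6 CPM in the 4 WT mice, 4.89 to 11.2 in the IL10RAKO group and 3.41 to 7.59 in the DKO group, and CCR2 at 513.7 to 702.1, 361 to 627 and 3.92 to 6.68 CPM in the same order. All 12 macrophage markers were read in every library, with a summed level of 43412 to 76753 CPM over the 12 libraries, and 3 were higher in IL10RAKO mice (FCGR1, CD14 and H2-AB1), while in DKO mice 2 were higher (CD14 and MERTK) and 2 lower (ADGRE1 and CX3CR1). Fibroblast markers were lower in both mutant genotypes (6 of 6 genes, summed level 294 to 577 CPM in WT, 14.99 to 53.7 CPM in IL10RAKO and 16.1 to 66.98 CPM in DKO mice), and none of the 6 was at 0 in any of these libraries. Of 6 neutrophil markers, 5 could be tested and 4 were higher in IL10RAKO and in DKO mice (summed level 75.2 to 122 CPM in WT, 137 to 304 CPM in IL10RAKO libraries and 156 to 263 CPM in DKO libraries), while LY6G, whose protein the sort excluded, had at most 12 reads in any of the 12 libraries and S100A9 had 0 in every WT library. Of 6 plasmacytoid dendritic cell markers, 3 were lower in both (SIGLECH, KLK1 and TCF4), and of 5 monocyte markers, LY6C2 and PLAC8 were higher in both (summed level 123 to 185, 367 to 1048 and 432 to 698 CPM). The sort left out cells with Ly6C as well, yet LY6C2 had 92 to 160 reads in WT libraries. It had 759 to 2835 reads in IL10RAKO and 1066 to 1777 in DKO libraries (log2 fold change 4.06 and 3.65). ITGAE, the gene of CD103, had 0 to 60, 39 to 133 and 57 to 84 reads in the same order. Of 6 conventional dendritic cell markers, XCR1, CLEC9A and DPP4 were higher in IL10RAKO mice, and CLEC9A and DPP4 in DKO mice (summed level 60.3 to 175, 134 to 276 and 129 to 206 CPM). Of 5 endothelial markers, EGFL7 was lower in both genotypes and PECAM1 in DKO mice (summed level 78.7 to 221, 68.4 to 110 and 54.0 to 88.3 CPM), and of 4 mast cell and eosinophil markers that could be tested, KIT was higher in both. No marker of B and plasma cells, T and NK cells or epithelium was called. Reads of *Xist* exceeded 500 in 3 WT, 2 IL10RAKO and 1 DKO library, so the sexes were not balanced. These features moved with the genotypes, and their part in the results below was not tested. In bulk RNA, a change in the share of a cell type and a change in RNA per cell cannot be told apart.

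The sequences just upstream of 4 members are shown because their numbers of ISRE cores, and the calls of their genes, were not all the same. The search used the core GAAA, any 2 bases and GAAA again, on both strands (TTTC, 2 bases and TTTC on the other), in windows from 250 bases before to 50 bases after the annotated start (RefSeq, GRCm38.p6, the sequence of mm10). Each run below holds the 250 bases before the start, read 5′ to 3′ on the strand of the gene, with ISRE cores in capitals. ISG15 (chr4:156200819-156201068, minus strand) and OASL1 (chr5:114922990-114923239, plus strand) were called higher in both IL10RAKO and DKO mice. IFIT1 (chr19:34640639-34640888, plus strand) was called higher in IL10RAKO mice alone, and BST2 (chr8:71537473-71537722, minus strand) was called in no comparison.
ISG15: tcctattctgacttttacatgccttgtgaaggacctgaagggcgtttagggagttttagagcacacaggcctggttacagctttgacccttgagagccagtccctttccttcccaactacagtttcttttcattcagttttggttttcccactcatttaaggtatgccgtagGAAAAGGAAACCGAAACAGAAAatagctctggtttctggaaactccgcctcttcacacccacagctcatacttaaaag
IFIT1: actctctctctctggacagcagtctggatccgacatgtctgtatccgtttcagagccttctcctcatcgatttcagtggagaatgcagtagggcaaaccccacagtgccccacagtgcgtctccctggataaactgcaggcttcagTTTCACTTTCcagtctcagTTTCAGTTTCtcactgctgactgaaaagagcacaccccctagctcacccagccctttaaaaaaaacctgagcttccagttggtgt
BST2: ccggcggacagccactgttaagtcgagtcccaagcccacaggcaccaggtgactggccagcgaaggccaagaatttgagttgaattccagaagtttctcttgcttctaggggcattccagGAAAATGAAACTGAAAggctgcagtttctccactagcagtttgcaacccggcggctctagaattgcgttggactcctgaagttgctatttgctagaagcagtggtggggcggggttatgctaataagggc
OASL1: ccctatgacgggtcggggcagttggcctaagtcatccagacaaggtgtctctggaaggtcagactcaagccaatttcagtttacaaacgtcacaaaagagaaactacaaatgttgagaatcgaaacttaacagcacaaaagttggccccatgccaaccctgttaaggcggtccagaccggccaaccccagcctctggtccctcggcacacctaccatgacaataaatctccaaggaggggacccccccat
The ISG15 window held 3 overlapping cores, the IFIT1 window 2 and the BST2 window 2 that overlap each other, and no core was found in the OASL1 window. A window was found for 33 of the 42 members, and none for DHX58, ZBP1, OAS2, USP18, MX1, MX2, PARP9, PARP14 and RTP4. Of the 33, 15 (45.5%) held at least 1 core, against 3.99% of 27025 genes with a window. Among the 20 members with a window that were called higher in IL10RAKO than in WT mice, 7 (35%) held a core, and among the 13 that were not called, 8 (61.5%) did. The GAS core, TTC and GAA with any 3 bases between, which reads the same on both strands, was found in 9 of the 33 (27.3%), against 9.55% of all genes with a window. It was in 5 of the 20 members called higher and in 4 of the 13 not called. A match describes these letters only, and a gene with several annotated starts had more than 1 window searched.

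Antiviral genes were higher in IL10RAKO than in WT macrophages for 24 of the 42 members, led by ISG15, SAMHD1 and ZBP1, and none was lower (adjusted p under 0.05, edgeR quasi-likelihood test over all 13136 genes). Over all genes tested, 8.7% were called higher and 7.1% lower. The fold change was positive for 39 members and negative for 3 (ADAR, MX2 and OAS2), with a median log2 fold change of 0.85 (range -0.69 to 2.88), against -0.07 over all genes. At an unadjusted p under 0.05, 31 members were higher and 0 lower, against 14.3% and 14.8% of all genes. DKO macrophages were higher than WT for 18 members and lower for 1, OAS2, against 9.23% and 9.22% of all genes. Their median was 0.63 (range -1.43 to 2.43), against -0.06 over all genes, with 37 positive and 5 negative members. Both comparisons use the same 4 WT mice, so they are not independent of each other. The 17 members called higher in both were IRF7, DDX58, ZBP1, ISG15, HERC6, IFIT2, RSAD2, IFITM3, SAMHD1, PARP9, DTX3L, PARP12, OASL1, OASL2, IFI44, XAF1 and LGALS3BP. IFIT1, OAS1A, USP18, CMPK2, ISG20, IFITM2 and RTP4 were called in IL10RAKO mice alone and OAS3 in DKO mice alone, which does not show that the 2 genotypes differ for them. The other 16 members were called in neither. Leaving out any 1 of the 12 mice kept 19 of the 24 calls in IL10RAKO and 14 of the 19 in DKO mice. With WT mouse 11 added, the calls of USP18, HERC6, CMPK2, ISG20 and DTX3L in IL10RAKO mice and of OAS2, HERC6, IFIT2, RSAD2 and DTX3L in DKO mice were lost. For these lost calls, the log2 fold changes of HERC6, CMPK2, ISG20 and DTX3L were larger in that fit. Those of USP18, OAS2, IFIT2 and RSAD2 were smaller in size. With library totals in place of TMM, 16 members were called higher in IL10RAKO mice, and 14 higher and 2 lower (OAS2 and MX2) in DKO mice. The calls lost were those of DDX58, OAS1A, USP18, CMPK2, ISG20, IFITM2, RTP4 and XAF1 in IL10RAKO and of DDX58, OAS3, RSAD2 and XAF1 in DKO mice. That scaling moved the median of all genes to -0.38 and -0.32, and the members' median lay 0.91 and 0.69 above it, against 0.92 and 0.69 with TMM. Of all genes called, 55.1% were higher in IL10RAKO and 50.0% in DKO mice with TMM, 43.4% and 37.7% with upper quartile scaling, and 23.8% and 25.9% with library totals.

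**Figure D1:**
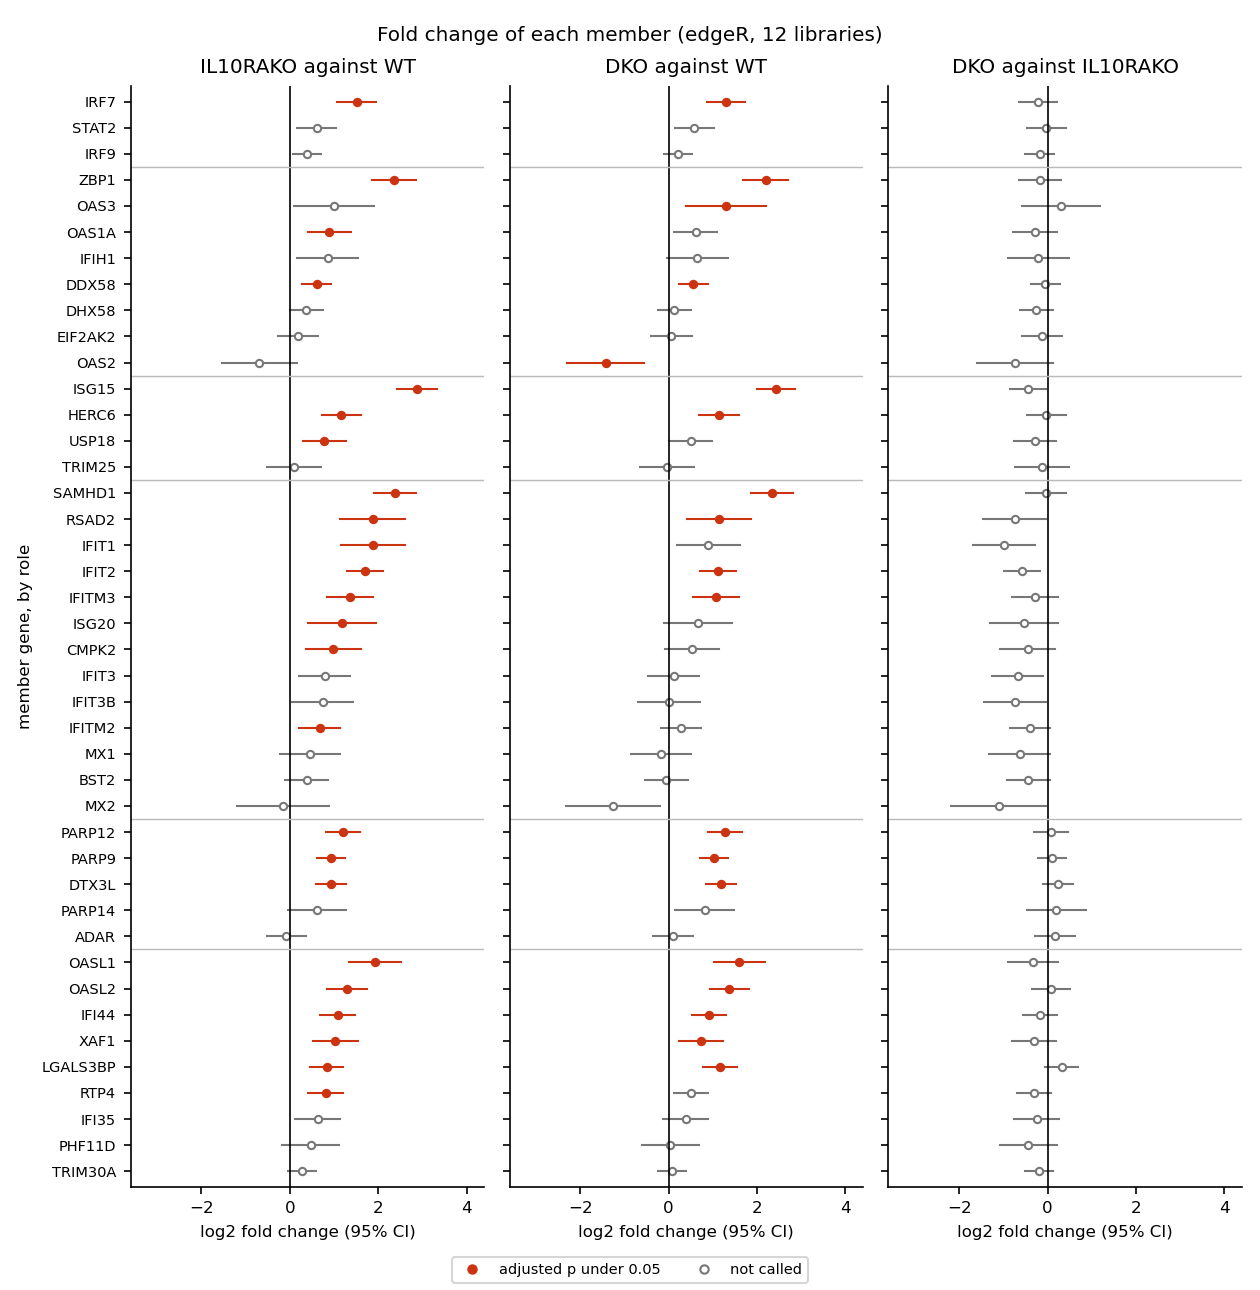
Log2 fold change of each of the 42 members (rows, grouped by role with grey lines between roles) in 3 comparisons of 4 mice against 4, with 95% confidence intervals from edgeR; filled red points passed an adjusted p under 0.05 and open grey points did not. Against WT, 24 members in IL10RAKO and 18 in DKO mice lie to the right with a filled point, OAS2 alone lies to the left with one, and in the third panel no point is filled.

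Per kilobase of exon (RPKM, so that genes can be compared), the members spanned a wide range already in WT macrophages. IFITM2 and IFITM3 stood highest, with a mean of 723 and 536 RPKM, followed by BST2 with 106 and LGALS3BP with 104, while OAS3 was lowest with 0.936. In IL10RAKO mice the highest mean levels were those of IFITM3 (1373 RPKM), IFITM2 (1156) and ISG15 (296), and in DKO mice those of IFITM3 (1129), IFITM2 (877) and LGALS3BP (232). ISG15 had been at 40.4 RPKM in WT mice.

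Of the factors, IRF7 rose and its partners in the pathway did not pass the test. IRF7 (chromosome 7, 141262706 to 141266481 in mm10), which drives interferon alpha genes, was at 114, 106, 92.3 and 102 CPM in WT, at 434, 287, 232 and 226 in IL10RAKO and at 292, 216, 237 and 274 in DKO mice. The WT mice did not overlap with either mutant genotype. The log2 fold change was 1.51 (95% CI 1.07 to 1.94, adjusted p = 0.00017) in IL10RAKO and 1.30 (95% CI 0.87 to 1.73, adjusted p = 0.000458) in DKO mice. STAT2 (chromosome 10, 128270559 to 128292849), the member of the ISRE-binding complex that carries its activation domain, was at 85.7, 98.5, 69.7 and 102 CPM in WT, at 132, 179, 127 and 104 in IL10RAKO and at 93.7, 136, 164 and 138 in DKO mice. All 4 IL10RAKO mice were above the 4 fitted WT mice, while DKO mouse 3 lay among them. WT mouse 11, outside the fit, was at 161 CPM, above IL10RAKO mice 1, 7 and 8. The log2 fold change of STAT2 was 0.61 (95% CI 0.16 to 1.05, adjusted p = 0.0625) and 0.58 (95% CI 0.14 to 1.02, adjusted p = 0.0666), and it passed in IL10RAKO mice without IL10RAKO mouse 8 or DKO mouse 3 and in DKO mice without IL10RAKO mouse 2 or DKO mouse 3. IRF9 (chromosome 14, 55603571 to 55610030), which gives that complex its DNA contact, was at 67.2, 76.7, 80.6 and 78.9 CPM in WT, at 113, 100.02, 92.2 and 92.01 in IL10RAKO and at 106, 86.4, 86.3 and 71.9 in DKO mice. The IL10RAKO mice were all above the 4 fitted WT mice by a narrow margin, but below WT mouse 11 (134 CPM). The log2 fold change of IRF9 was 0.39 (95% CI 0.07 to 0.71, adjusted p = 0.0982) and 0.21 (95% CI -0.11 to 0.53, adjusted p = 0.372). The sign of the IRF9 difference in DKO mice changed when library totals replaced TMM.

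Among the 8 sensors of viral nucleic acid, 3 were called higher in each mutant genotype, and 1 was called lower in DKO mice. ZBP1 (chromosome 2, 173206612 to 173218923), which binds nucleic acid in the Z form and can start necroptosis, was at 21.6, 28.4, 43.9 and 25.2 CPM in WT, at 171, 185, 108 and 145 in IL10RAKO and at 161, 122, 124 and 137 in DKO mice. Every mutant mouse was above every WT mouse, with a log2 fold change of 2.35 (95% CI 1.85 to 2.86, adjusted p = 1.14e-05) for IL10RAKO and 2.19 (95% CI 1.69 to 2.69, adjusted p = 2.1e-05) for DKO mice. DDX58, which encodes the RNA sensor RIG-I (chromosome 4, 40203773 to 40239828), was at 47.9, 50.9, 43.98 and 43.4 CPM in WT, at 73.98, 63.6, 84.8 and 62.5 in IL10RAKO and at 60.02, 75.7, 63.3 and 75.6 in DKO mice. This small rise did not overlap with WT in either genotype, with a log2 fold change of 0.61 (95% CI 0.29 to 0.94, adjusted p = 0.0136) and 0.56 (95% CI 0.23 to 0.89, adjusted p = 0.0195). The DKO call was lost when WT mouse 10 or 13 or DKO mouse 9 or 14 was left out, and both calls were lost with library totals (adjusted p = 0.183 and 0.193). IFIH1, the RNA sensor MDA5 (chromosome 2, 62595798 to 62646255), was at 9.12, 23.04, 29.7 and 27.04 CPM in WT, at 32.4, 46.1, 56.2 and 26.4 in IL10RAKO and at 26.7, 32.9, 39.5 and 40.3 in DKO mice. WT mouse 4 was lowest and the groups overlapped, with a log2 fold change of 0.86 (95% CI 0.17 to 1.55, adjusted p = 0.0901) and 0.65 (95% CI -0.04 to 1.34, adjusted p = 0.186). DHX58, or LGP2, which tunes these sensors (chromosome 11, 100694884 to 100704271), was at 79.6, 62.8, 78.9 and 53.01 CPM in WT, at 105, 83.3, 74.5 and 93.9 in IL10RAKO and at 88.9, 70.03, 63.8 and 76.7 in DKO mice. Its groups overlapped as well, with a log2 fold change of 0.38 (95% CI -0.00 to 0.75, adjusted p = 0.174) and 0.13 (95% CI -0.25 to 0.50, adjusted p = 0.677). EIF2AK2, the kinase PKR that halts translation, had means of 20.7 ± 4.61, 23.5 ± 2.04 and 21.6 ± 5.22 CPM in WT, IL10RAKO and DKO mice, and it passed in neither comparison.

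The oligoadenylate synthetases, which make the messenger that activates RNase L, did not move together. OAS2 (chromosome 5, 120730333 to 120749853) was at 18.7, 54.6, 68.5 and 101 CPM in WT, at 30.8, 59.9, 33.8 and 26.3 in IL10RAKO and at 15.3, 21.5, 29.3 and 24.3 in DKO mice. WT mice 5, 10 and 13 were above all DKO mice, but WT mouse 4 lay within the DKO range. The log2 fold change was -0.69 (95% CI -1.54 to 0.16, adjusted p = 0.274) in IL10RAKO and -1.43 (95% CI -2.29 to -0.56, adjusted p = 0.0243) in DKO mice, the only call of a lower level among the members. It was lost when WT mouse 10 or 13 or DKO mouse 3, 9 or 14 was left out, and also with limma-voom, with the deposited pseudocounts and with WT mouse 11 added, while leaving out WT mouse 4 also gave a call in IL10RAKO mice (lower). OAS1A had means of 70.1 ± 13.2, 130.3 ± 39.4 and 107 ± 21.004 CPM in WT, IL10RAKO and DKO mice and was called in IL10RAKO mice (log2 fold change 0.89, 95% CI 0.40 to 1.39, adjusted p = 0.0165) and not in DKO mice (log2 fold change 0.61, 95% CI 0.12 to 1.10, adjusted p = 0.0815). Of the 100-base stretches of its transcript, 40.9% are shared with other genes, most with *Oas1g*, so its count is uncertain. The call in IL10RAKO mice was lost without mouse 1, and it passed in DKO mice without IL10RAKO mouse 7. OAS3 was low, at 3.34 to 9.46 CPM in WT, 5.75 to 17.4 CPM in the IL10RAKO group and 8.23 to 24.8 CPM in the DKO group, and its call in DKO mice (log2 fold change 1.30, 95% CI 0.40 to 2.20, adjusted p = 0.0453) was kept only when WT mouse 13, IL10RAKO mouse 8 or DKO mouse 3 or 9 was the mouse left out.

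Of ISG15 and its 3 enzymes, 3 were called higher in IL10RAKO and 2 in DKO mice. ISG15 (chromosome 4, 156199424 to 156200818), a ubiquitin-like protein that is attached to other proteins and also secreted, was at 25.97, 28.5, 28.7 and 38.95 CPM in WT, at 179, 272, 264 and 181 in IL10RAKO and at 196, 177, 138 and 147 in DKO mice. It had the largest fold change of the members in both comparisons, with a log2 fold change of 2.88 (95% CI 2.43 to 3.32, adjusted p = 1.26e-06) for IL10RAKO and 2.43 (95% CI 1.99 to 2.86, adjusted p = 2.34e-06) for DKO mice, and the mutant mice did not overlap with WT. HERC6, the ligase that attaches ISG15 in mice, had means of 31.1 ± 9.79, 69.7 ± 10.4 and 68.5 ± 7.43 CPM in WT, IL10RAKO and DKO mice (log2 fold change 1.17, 95% CI 0.72 to 1.62, adjusted p = 0.00161, and 1.14, 95% CI 0.69 to 1.59, adjusted p = 0.00162), and neither call held with WT mouse 11 added (adjusted p = 0.0749 and 0.0738). HERC6 was at 1.98 CPM in mouse 11, and the log2 fold changes in that fit were larger, at 1.47 and 1.44. USP18, which removes ISG15 and damps the type I interferon receptor, had means of 37.3 ± 4.12, 64.3 ± 16.3 and 52.7 ± 16.9 CPM and passed in IL10RAKO mice (log2 fold change 0.78, 95% CI 0.30 to 1.27, adjusted p = 0.0292), a call lost when IL10RAKO mouse 1 or WT mouse 5, 10 or 13 was left out, with library totals and with WT mouse 11 added. TRIM25 (chromosome 11, 88999376 to 89020293), a ubiquitin ligase that acts on RIG-I, was at 102, 154, 114 and 205 CPM in WT, at 96.1, 247, 154 and 116 in IL10RAKO and at 116, 137, 178 and 129.8 in DKO mice. The 3 genotypes overlapped widely, with a log2 fold change of 0.09 (95% CI -0.52 to 0.70, adjusted p = 0.87) and -0.04 (95% CI -0.65 to 0.57, adjusted p = 0.945).

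**Figure D2:**
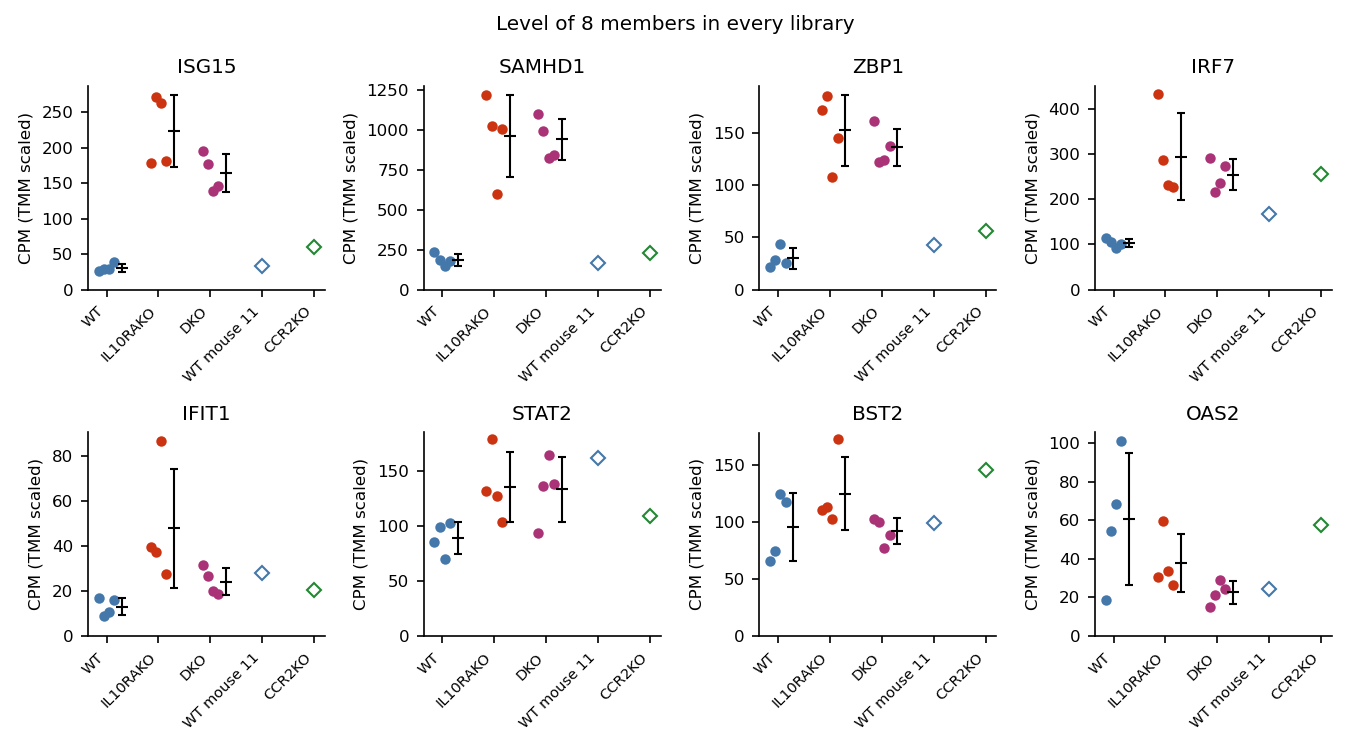
Level of 8 members in every library, in CPM on a linear axis from 0; filled points are single mice, horizontal marks with bars are the mean and SD of 4 mice, and open diamonds are WT mouse 11 and the CCR2KO mouse. ISG15, SAMHD1 and ZBP1 are separated from WT in every mutant mouse, whereas OAS2 and BST2 overlap between WT and mutant mice.

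Among the 13 direct restriction factors, 8 were called higher in IL10RAKO and 4 in DKO mice, and 0 lower. SAMHD1 (chromosome 2, 157097533 to 157135265), which removes the nucleotides that viruses need for DNA synthesis, was at 235, 185, 145 and 179 CPM in WT, at 1216, 1024, 599 and 1004 in IL10RAKO and at 1101, 990.4, 823 and 845 in DKO mice. IL10RAKO mouse 7 was lowest of the mutant mice and still above every WT mouse, and the log2 fold changes were 2.37 (95% CI 1.90 to 2.85, adjusted p = 6.78e-06) and 2.34 (95% CI 1.86 to 2.81, adjusted p = 6.97e-06). IFIT2 (chromosome 19, 34550694 to 34576419), which binds viral RNA, was at 30.9, 42.7, 33.7 and 45.1 CPM in WT, at 131, 133, 144 and 86.3 in IL10RAKO and at 87.4, 93.6, 82.4 and 69.4 in DKO mice. It rose without overlap in both genotypes (log2 fold change 1.70, 95% CI 1.29 to 2.11, adjusted p = 4.15e-05, and 1.13, 95% CI 0.72 to 1.53, adjusted p = 0.000854), but the DKO call was lost with WT mouse 11, where IFIT2 was at 96.4 CPM. IFIT1 (chromosome 19, 34640871 to 34650009), which recognises viral RNA caps, was at 16.8, 8.85, 10.5 and 15.8 CPM in WT, at 39.5, 37.2, 86.3 and 27.5 in IL10RAKO and at 31.6, 26.5, 19.8 and 18.6 in DKO mice. IL10RAKO mouse 7 stood far above the others, every mutant mouse was above WT, and the log2 fold change was 1.88 (95% CI 1.15 to 2.60, adjusted p = 0.00165) in IL10RAKO and 0.90 (95% CI 0.18 to 1.61, adjusted p = 0.0776) in DKO mice, where it passed once IL10RAKO mouse 7 was left out.

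IFIT3 and IFIT3B are neighbours on chromosome 19 (34583531 to 34588731 and 34607970 to 34613401) that share 31.7% and 27.4% of their 100-base stretches, so reads may have been split between them. IFIT3 was at 45.02, 27.7, 26.96 and 25.8 CPM in WT, at 77.5, 36.6, 61.9 and 41.5 in IL10RAKO and at 46.9, 32.3, 30.4 and 26.5 in DKO mice. IFIT3B was at 5.30, 6.80, 5.38 and 6.66 CPM in WT, at 15.03, 6.98, 11.8 and 6.54 in IL10RAKO and at 7.62, 5.54, 3.65 and 7.41 in DKO mice. In IL10RAKO mice 1 and 7 both were higher than in any WT mouse, while mice 2 and 8 lay near or in the WT range. Neither passed in IL10RAKO (log2 fold change 0.79, 95% CI 0.22 to 1.37, adjusted p = 0.0614 for IFIT3 and 0.74, 95% CI 0.04 to 1.44, adjusted p = 0.148 for IFIT3B) or in DKO mice (log2 fold change 0.12, 95% CI -0.46 to 0.69, adjusted p = 0.81, and 0.01, 95% CI -0.69 to 0.71, adjusted p = 0.989), and IFIT3 passed in IL10RAKO mice when WT mouse 4, IL10RAKO mouse 2 or DKO mouse 3 was left out.

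RSAD2, or viperin, which makes a chain-ending nucleotide, and its neighbour CMPK2 were both higher in IL10RAKO mice. RSAD2 had means of 31.2 ± 9.96, 115 ± 55.3 and 68.7 ± 19.5 CPM in WT, IL10RAKO and DKO mice (log2 fold change 1.88, 95% CI 1.15 to 2.61, adjusted p = 0.00176, and 1.14, 95% CI 0.42 to 1.86, adjusted p = 0.0301), the second a call lost without WT mouse 5 or 13 or DKO mouse 9 or 12, with library totals and with WT mouse 11 added. CMPK2 (chromosome 12, 26469204 to 26479837), a nucleotide kinase, was at 13.03, 6.92, 7.29 and 16.3 CPM in WT, at 27.1, 15.9, 26.2 and 16.7 in IL10RAKO and at 15.8, 18.6, 13.6 and 14.7 in DKO mice. IL10RAKO mice 2 and 8 lay close to WT mouse 13, and the log2 fold change was 0.98 (95% CI 0.36 to 1.60, adjusted p = 0.0332) and 0.53 (95% CI -0.09 to 1.15, adjusted p = 0.231). ISG20 (chromosome 7, 78913424 to 78920396), an exonuclease of RNA, was at 7.16, 9.85, 13.8 and 6.46 CPM in WT, at 27.6, 23.7, 19.8 and 14.1 in IL10RAKO and at 26.999, 11.3, 12.2 and 8.45 in DKO mice. No IL10RAKO mouse overlapped with WT, whereas 3 of the 4 DKO mice did (log2 fold change 1.19, 95% CI 0.42 to 1.96, adjusted p = 0.0377, and 0.66, 95% CI -0.11 to 1.42, adjusted p = 0.233). Calls of CMPK2 and ISG20 in IL10RAKO mice were lost with library totals, with upper quartile scaling and with WT mouse 11. With that mouse added the log2 fold changes were larger, at 1.30 for CMPK2 and 1.48 for ISG20. The calls were also lost when IL10RAKO mouse 1 or 7 or WT mouse 5 was left out, for CMPK2 without WT mouse 10, and for ISG20 without IL10RAKO mouse 2 or WT mouse 4 or 13.

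The membrane-acting factors diverged. IFITM3, which blocks fusion of viruses in endosomes, had means of 364 ± 41.9, 931 ± 300.3 and 766 ± 221 CPM in WT, IL10RAKO and DKO mice (log2 fold change 1.36, 95% CI 0.83 to 1.88, adjusted p = 0.00164, and 1.07, 95% CI 0.55 to 1.59, adjusted p = 0.0067). Its neighbour IFITM2 (chromosome 7, 140954837 to 140955987) was at 490.1, 327, 541 and 537 CPM in WT, at 921, 868, 517 and 722 in IL10RAKO and at 723, 583, 459.5 and 533 in DKO mice. IL10RAKO mouse 7 lay in the WT range, as did DKO mice 12 and 14, and the call in IL10RAKO mice (log2 fold change 0.68, 95% CI 0.21 to 1.14, adjusted p = 0.0467, against 0.28, 95% CI -0.18 to 0.74, adjusted p = 0.408 in DKO mice) was kept only when IL10RAKO mouse 7 or DKO mouse 3 or 12 was the mouse left out. A predicted gene, *Gm45717*, covers 40.9% of the IFITM2 exons on the same strand. BST2, or tetherin (chromosome 8, 71534255 to 71537456), which holds budding viruses at the cell surface, was at 65.3, 74.6, 124 and 117 CPM in WT, at 110.2, 113, 103 and 173 in IL10RAKO and at 102, 99.4, 77.5 and 88.4 in DKO mice. The WT mice overlapped with both mutant genotypes, with a log2 fold change of 0.39 (95% CI -0.10 to 0.87, adjusted p = 0.282) and -0.05 (95% CI -0.54 to 0.43, adjusted p = 0.9). MX1 and MX2, the dynamin-like GTPases, passed in neither comparison. MX1 had means of 17.8 ± 6.40, 24.4 ± 9.64 and 15.8 ± 3.62 CPM in WT, IL10RAKO and DKO mice (log2 fold change 0.46, 95% CI -0.23 to 1.14, adjusted p = 0.372, and -0.18, 95% CI -0.86 to 0.51, adjusted p = 0.754). MX2 had means of 8.93 ± 4.54, 8.01 ± 3.37 and 3.72 ± 1.76 CPM (log2 fold change -0.15, 95% CI -1.20 to 0.89, adjusted p = 0.871, and -1.26, 95% CI -2.33 to -0.19, adjusted p = 0.0977). MX2 passed as lower in DKO mice when WT mouse 4 was left out.

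A group of 5 members held enzymes that attach ADP-ribose or edit RNA, together with DTX3L, a partner of PARP9. The same 3 of them were higher in both genotypes (PARP12, PARP9 and DTX3L). PARP12 (chromosome 6, 39086410 to 39118349), an ADP-ribosyl transferase with RNA-binding zinc fingers, was at 45.9, 40.9, 62.6 and 51.2 CPM in WT, at 145, 93.9, 105 and 114 in IL10RAKO and at 109.7, 112, 117 and 144 in DKO mice. PARP9 (chromosome 16, 35938470 to 35972605), which works with the ubiquitin ligase DTX3L, was at 51.4, 61.5, 55.7 and 43.5 CPM in WT, at 107, 95.5, 95.9 and 109 in IL10RAKO and at 110.4, 112, 92.7 and 119 in DKO mice. No mutant mouse overlapped with WT for either gene. The log2 fold changes were 1.19 (95% CI 0.81 to 1.58, adjusted p = 0.000415) and 1.27 (95% CI 0.88 to 1.65, adjusted p = 0.000226) for PARP12 and 0.94 (95% CI 0.62 to 1.26, adjusted p = 0.000576) and 1.03 (95% CI 0.72 to 1.35, adjusted p = 0.000235) for PARP9. DTX3L had means of 69.4 ± 8.89, 133 ± 21.5 and 157 ± 18.9 CPM in WT, IL10RAKO and DKO mice (log2 fold change 0.94, 95% CI 0.59 to 1.28, adjusted p = 0.00111, and 1.18, 95% CI 0.83 to 1.52, adjusted p = 0.000159), and with WT mouse 11 added its adjusted p was 0.137 and 0.0717. Its log2 fold changes in that fit were larger, at 1.24 and 1.48. PARP9 and DTX3L lie head to head and their exons overlap on opposite strands (9.4% of PARP9 and 8.0% of DTX3L), and whether the counting used strand is not stated. PARP14, with means of 51.3 ± 8.73, 78.5 ± 28.3 and 90.1 ± 35.7 CPM, and ADAR, which edits adenosine to inosine in double-stranded RNA, with 82.7 ± 16.3, 78.4 ± 12.5 and 88.5 ± 23.5 CPM, did not pass, except PARP14 in DKO mice without DKO mouse 3.

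The remaining 9 members held 6 that rose in IL10RAKO and 5 that rose in DKO mice. OASL1 (chromosome 5, 114923240 to 114937915), a relative of the synthetases that in mice limits IRF7 translation, was at 33.6, 26.7, 16.03 and 32.5 CPM in WT, at 64.9, 122, 142 and 86.1 in IL10RAKO and at 90.9, 97.1, 67.3 and 73.9 in DKO mice. It did not overlap with WT in either genotype (log2 fold change 1.93, 95% CI 1.35 to 2.52, adjusted p = 0.000249, and 1.60, 95% CI 1.02 to 2.18, adjusted p = 0.000874). OASL2 had means of 73.8 ± 15.9, 181 ± 48.6 and 191 ± 23.2 CPM in WT, IL10RAKO and DKO mice, IFI44 of 96.3 ± 12.8, 204 ± 48.8 and 181 ± 22.2 CPM, and LGALS3BP, a secreted galectin ligand, of 296 ± 26.4, 528 ± 134 and 659.9 ± 79.5 CPM. These 3 were called in both genotypes, with no overlap with WT. XAF1, which promotes cell death, had means of 21.9 ± 7.53, 44.9 ± 5.24 and 36.3 ± 7.56 CPM and was called in both, and its DKO call (log2 fold change 0.73, 95% CI 0.23 to 1.23, adjusted p = 0.0434) was kept only when WT mouse 10, IL10RAKO mouse 7 or DKO mouse 12 was the mouse left out. RTP4 (chromosome 16, 23520291 to 23614222), which binds nucleic acid, was at 32.4, 40.3, 44.8 and 41.2 CPM in WT, at 78.8, 79.1, 53.2 and 66.7 in IL10RAKO and at 67.7, 54.9, 44.3 and 57.4 in DKO mice. Its call in IL10RAKO mice (log2 fold change 0.81, 95% CI 0.42 to 1.20, adjusted p = 0.00711, against 0.50, 95% CI 0.11 to 0.89, adjusted p = 0.0705 in DKO mice) was lost with library totals, and it passed in DKO mice without IL10RAKO mouse 7 or DKO mouse 12. IFI35, PHF11D and TRIM30A, a brake on NF-kB signalling, had log2 fold changes of 0.63, 0.47 and 0.27 in IL10RAKO and 0.39, 0.04 and 0.07 in DKO mice and did not pass, except IFI35 in IL10RAKO mice when mouse 7 was left out. Predicted genes share exon with HERC6 (13.7%), IFI35 (16.8%) and RTP4 (13.9%).

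**Figure D3:**
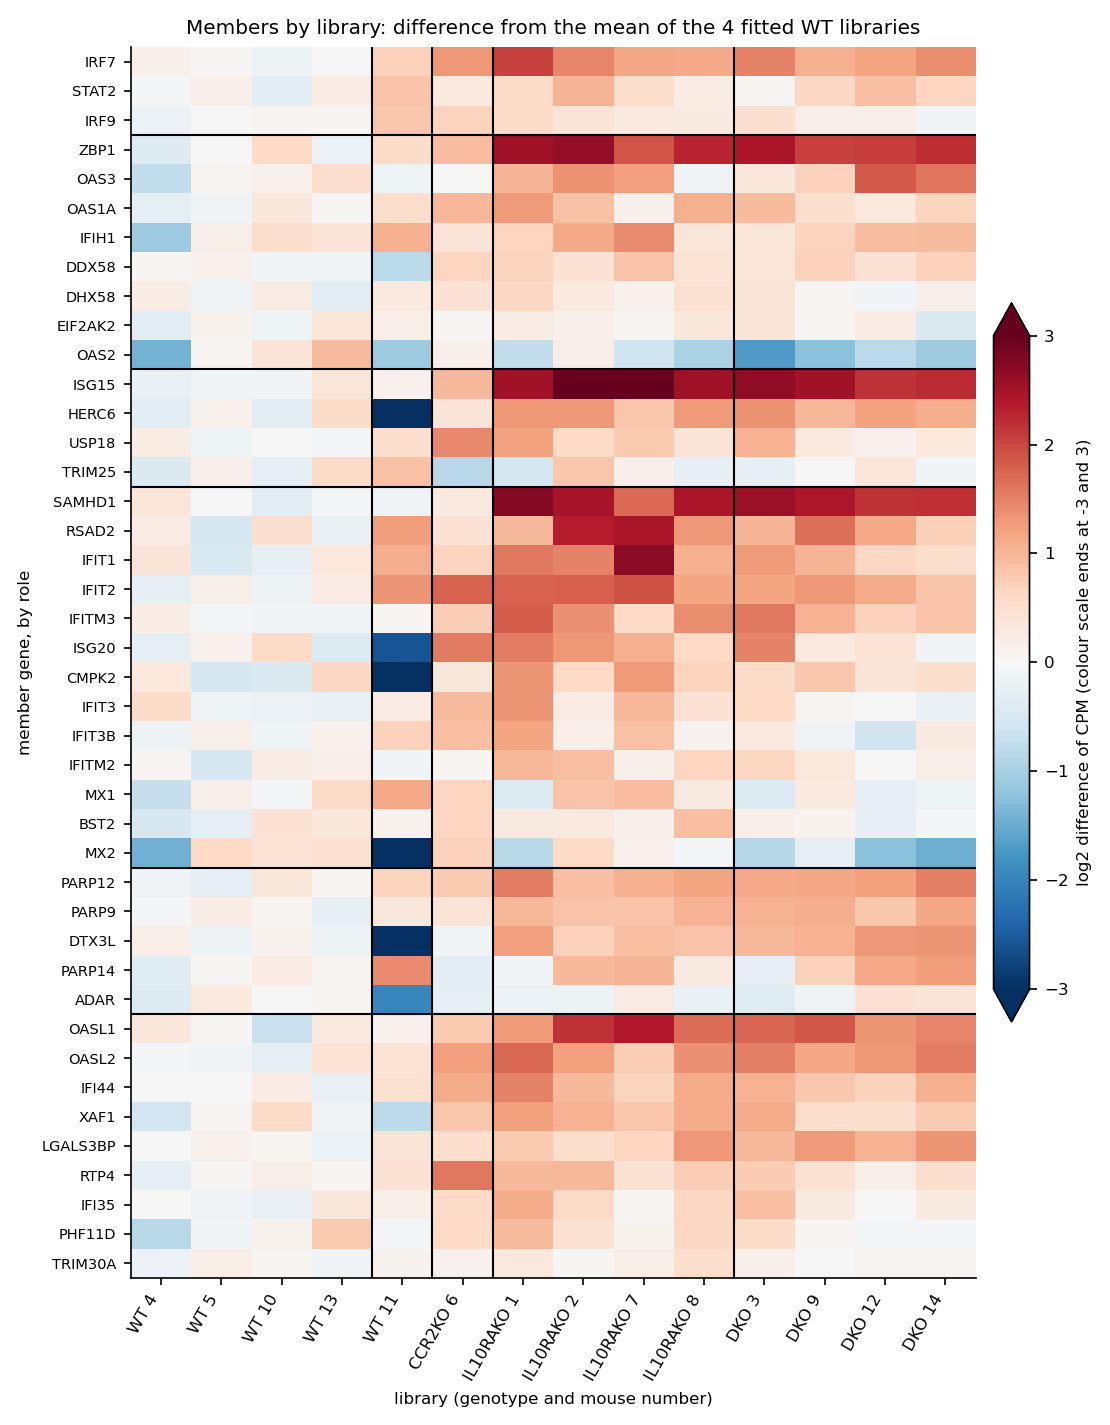
Log2 difference of each member (rows, by role) from the mean of WT mice 4, 5, 10 and 13 in all 14 libraries (columns); red is higher, blue is lower and the colour scale ends at -3 and 3. Red fills the rows of ISG15, SAMHD1 and ZBP1 in all 8 mutant mice, TRIM25, ADAR and TRIM30A stay pale in most, and WT mouse 11 shows blue for HERC6, CMPK2, MX2 and DTX3L beside red for other members.

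DKO and IL10RAKO macrophages were compared to see whether loss of CCR2 changed these genes in mice without the interleukin-10 receptor. No member was called in either direction (smallest adjusted p = 0.99992, edgeR), where 0.0152% of all genes were called higher and 0.0305% lower. DESeq2 also called 0 members. At an unadjusted p under 0.05, 0 members were higher and 7 lower (ISG15, IFIT1, IFIT2, IFIT3, IFIT3B, RSAD2 and MX2), where 1.04% of all genes were higher and 1.91% lower. The fold change was negative for 34 members and positive for 8, against 52.2% negative over all genes, with a median of -0.25 (range -1.11 to 0.32) against -0.01. The median was -0.15 without IL10RAKO mouse 1 and -0.36 without DKO mouse 3. The adjusted p was 0.99992 for every member named below. For 31 of the 42 members the 95% confidence interval lay within 1 log2 unit of 0 on both sides, as it did for 63.4% of all genes. Larger differences were outside the interval for these 31, whereas for the other 11 they were not. All 13 restriction factors were negative, with a median of -0.57. All 5 members of the ADP-ribose and editing group, DTX3L included, were positive, with a median of 0.18. Without IL10RAKO mouse 1, 12 of the 13 restriction factors were negative, with a median of -0.47, and SAMHD1 was at 0.10.

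The widest of these estimates was that of MX2, a low gene, with a log2 fold change of -1.11 (95% CI -2.18 to -0.04). For IFIT1 it was -0.98 (95% CI -1.69 to -0.27), and -0.51 without IL10RAKO mouse 7, the mouse with the highest level. For RSAD2 it was -0.74 (95% CI -1.46 to -0.03), and -0.49 without that mouse. IFIT2 had -0.57 (95% CI -0.97 to -0.17) and ISG15 -0.45 (95% CI -0.86 to -0.04). The estimates for SAMHD1, HERC6 and STAT2 were all -0.03, with 95% CI from -0.48 to 0.42 for SAMHD1, and the 3 changed sign with another scaling. BST2 was the 1 member whose 4 DKO and 4 IL10RAKO mice did not overlap (77.5 to 101.98 against 102.6 to 173 CPM), with a log2 fold change of -0.44 (95% CI -0.93 to 0.05). That is 2.38% of the members, against 2.41% of all genes tested.

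Most of the interferon transcripts themselves were sparse. IFNB1, the beta interferon, was at 1.24, 1.82, 6.67 and 5.13 CPM in the 4 WT mice, at 0.557, 6.73, 47.4 and 4.03 in IL10RAKO and at 2.37, 2.80, 1.27 and 0.84 in DKO mice. The value of 47.4 CPM, in IL10RAKO mouse 7, rested on 938 reads, against 8 to 108 in the other IL10RAKO mice. IFNB1 was not called (log2 fold change 1.98, adjusted p = 0.175 in IL10RAKO, and -1.03, adjusted p = 0.492 in DKO mice). Transcripts of IFNA1, IFNA2, IFNA4, IFNA5, IFNK, IFNE, IFNL2 and IFNL3 had at most 9 reads in any of the 12 libraries. IFNG was higher in both genotypes, with 0.573 to 3.56 CPM in WT, 6.22 to 23.7 CPM in the IL10RAKO group and 3.36 to 43.1 CPM in the DKO group (log2 fold change 3.05 and 3.12, adjusted p = 0.019 and 0.0148). It is made mainly by T and NK cells, whose 6 markers present in the table summed to 6.54 to 17.8 CPM over the 12 libraries. Of these markers 5 could be tested, with 0 called in either comparison. Which cells gave the IFNG reads was not tested.

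Upstream of the members, 1 of 9 receptor chains and kinases was higher, JAK2, in both genotypes (log2 fold change 1.28 and 1.38, adjusted p = 0.00644 and 0.00368), and 0 were lower. Over all genes tested, 8.7% were called higher and 7.1% lower in IL10RAKO mice, and 9.23% and 9.22% in DKO mice. A count of 1 of 9 is near that share. IFNAR1 and IFNAR2, the receptor of type I interferons, had log2 fold changes of 0.31 and 0.24 in IL10RAKO and 0.12 and 0.01 in DKO mice and did not pass. Of 14 other factors and sensors, 7 were higher in IL10RAKO (IRF1, IRF5, IRF8, TMEM173, TBK1, IKBKE and MYD88) and 6 in DKO mice (without MYD88), and 0 were lower. TMEM173 encodes STING and TBK1 the kinase it recruits. The sensor cGAS, listed as MB21D1, and MAVS, the adaptor of RIG-I and MDA5, did not pass (log2 fold change 0.01 and 0.04 in IL10RAKO mice). Of 7 negative regulators, 3 were higher in IL10RAKO and 4 in DKO mice, among them SOCS1, the inhibitor of JAK kinases (2.30 and 2.54, adjusted p = 0.000601 and 0.00025).

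Genes of the interferon gamma type, chiefly the guanylate-binding proteins, immunity-related GTPases and CXCR3 ligands, had larger fold changes than most members. Of 20 such genes, 19 were higher in each genotype, with a median log2 fold change of 3.24 for IL10RAKO and 3.09 for DKO mice, against 0.85 and 0.63 for the 42 members. In single mutant mice the median difference from the WT mean was 2.61 to 3.34 for the gamma type genes and 0.48 to 1.06 for the members. IL10RAKO mouse 7 was the lowest of its group for the gamma type genes (2.61) and had the highest IFNB1. Of the 4 IL10RAKO mice, mouse 1 (0.557 CPM of IFNB1 and 23.7 CPM of IFNG) was the highest for 20 of the 42 members, mouse 2 for 8, mouse 7 for 9 and mouse 8 for 5. The part of these transcripts in the differences between mice was not tested.

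**Figure D4:**
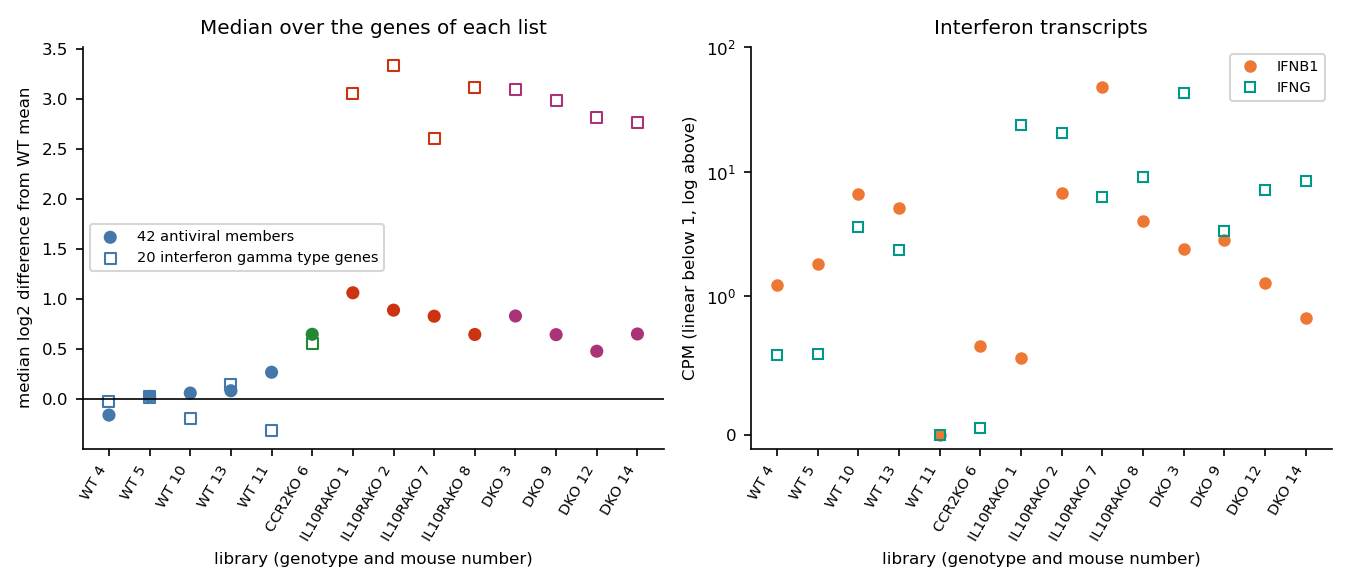
Left, the median log2 difference from the WT mean over the 42 members (filled circles) and over 20 interferon gamma type genes (open squares) in each of the 14 libraries, coloured by genotype; right, CPM of IFNB1 and IFNG in the same libraries, on an axis that is linear below 1 and logarithmic above. In the 8 mutant mice the squares lie at 2.61 to 3.34 and the circles at 0.48 to 1.06, while in the CCR2KO mouse both lie at about the level of the DKO circles (0.65 for the members and 0.56 for the gamma type genes).

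The CCR2KO mouse, which has no replicate and no test, had many members above the WT range, with a smaller difference of the gamma type genes than in the mice without IL10RA. Its members lay a median of 0.65 log2 units above the WT mean, and 27 of 42 (64.3%) were above every one of the 4 WT mice, against 21.8% of all genes. Below all 4 lay 1 member, TRIM25, against 23.3% of all genes. Its gamma type genes lay at a median of 0.56, against 2.61 to 3.34 in mice without IL10RA, and its IFNB1 was at 0.642 CPM. IRF7 was at 256 CPM there, as high as in mutant mice, and USP18 (103 CPM), RTP4 (120 CPM), ISG20 (28.2 CPM) and MX2 (13.0 CPM) were at the highest of the 14 libraries. ISG15 (59.9 CPM) and ZBP1 (55.9 CPM) were above WT but below every mutant mouse, and SAMHD1 (226 CPM) was within the WT range. Monocyte markers summed to 386 CPM in this mouse, above WT (123 to 185 CPM), and plasmacytoid dendritic cell markers to 328 CPM (229 to 368 in WT). B and plasma cell markers summed to 2611 CPM (521 to 1825 in WT), conventional dendritic cell markers to 256 CPM (60.3 to 175 in WT) and fibroblast markers to 681 CPM (294 to 577 in WT), and their part in these levels was not tested.

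Mouse 11 differed from the remaining WT animals, with 20 members above and 8 below all of them, against 29.6% of all genes above and 38.5% below. It had no reads on CMPK2 and MX2 and little HERC6 (1.98 CPM), DTX3L (3.59 CPM) and ISG20 (0.659 CPM), beside MX1 at 38.4 CPM, PARP14 at 136 CPM, IRF9 at 134 CPM and TRIM25 at 257 CPM, each the highest of all 14 libraries. It had 11670 genes with a read, against 13485 to 15402 in the other WT mice, and its epithelial markers summed to 3278 CPM, against 51.8 to 1298. With this library added, 19 members were called higher in IL10RAKO and 14 in DKO mice, and 0 lower.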

How the data were processed

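RNA was sequenced from sorted macrophages of single mice, 14 in all. The deposited values are counts of reads per gene, which the authors made by alignment to mm10 with STAR 2.5.1b after bcl2fastq 2.20, with gene names harmonised by biomaRt. The annotation, the treatment of multi-mapping reads and the use of strand are not given in the sources used here. A second deposited table holds edgeR pseudocounts, a score the authors computed (edgeR 3.34.0 in the submitters' processing notes), for 13338 genes in 12 libraries, with a filter not given in the sources used here, and served as an alternative only. There were 0 columns of per-sample values left unused.

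Counts were filtered with filterByExpr (minimum count 10) and scaled by TMM, and 12 libraries were fitted together with glmQLFit and glmQLFTest (edgeR 4.0.16, R 4.3.3). Adjusted p-values are Benjamini-Hochberg over all 13136 genes, with a threshold of 0.05. RPKM used exon lengths of GENCODE vM21, from which gene positions also come, and promoters are from RefSeq GRCm38.p6. Simulated counts with known changes served to test the fit. Alternatives were limma 3.58.1, DESeq2 1.42.0, other scalings, filters and spread estimates, only the genotypes compared, WT mouse 11 added, the deposited pseudocounts as log2(value + 1), a minimum fold change and leaving out each mouse. Mice of one genotype differed well beyond counting noise, with chi-square per degree of freedom of at least 31.8 for each pair of mice.

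Values in every library were given for the 8 members of smallest p in IL10RAKO against WT, those called in DKO against IL10RAKO or lower than WT, STAT2, IRF7, IRF9, the sensors DDX58, IFIH1 and DHX58, the pair IFIT3 and IFIT3B, the 6 called in a single comparison with the largest DKO against IL10RAKO difference, and the 3 of highest CPM called in neither. The members and lists were chosen with earlier results of these data known. A gene of the list of other factors and sensors is not reported here.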

Additional observations from a re-analysis of the deposited data

Results flagged for a closer look

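Of 126 sets of 4 mice (42 members in 3 genotypes), 4 held 1 mouse far from the other 3, where chance alone marks about 5% of such sets. HERC6 in IL10RAKO mouse 7 was at 54.2 CPM, well below the other 3 IL10RAKO mice, and its call against WT was kept without that mouse. ADAR in IL10RAKO mouse 7 was at 97.1 CPM, above the other 3, and was called in no comparison. IFIT3 in WT mouse 4 was at 45.0 CPM, above the other 3 WT mice, and IFIT3 passed in IL10RAKO mice without it. MX2 in WT mouse 4 was at 2.20 CPM, below the other 3, and MX2 passed as lower in DKO mice without it.

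The CCR2KO library, which entered no comparison, had 27 of 42 members (64.3%) above every one of the 4 WT mice, against 21.8% of all genes. Below all 4 lay 1 member, against 23.3% of all genes. This library is 1 mouse, and the difference was not tested.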

How the results depend on the processing

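No paired analysis was possible because the genotypes hold different mice, and replicate numbers were given in accession order alone. Leaving out 1 mouse at a time gave 19 to 26 members called higher and 0 to 1 lower in IL10RAKO against WT, 15 to 20 higher and 0 to 2 lower in DKO against WT, and 0 in DKO against IL10RAKO. The members' median log2 fold change then ran from 0.81 to 0.91, 0.57 to 0.77 and -0.36 to -0.15. With a log2 fold change that also had to reach 1 in size, 15 members were called in IL10RAKO mice in place of 24. Against WT, upper quartile scaling called 20 higher in IL10RAKO, and 15 higher and 1 lower in DKO mice, and DESeq2 27, and 23 and 1. In every fit run over the whole table, 14 members were called in IL10RAKO and 11 in DKO mice. The median over the members was 0.53 and 0.37 with library totals and 0.74 and 0.51 with upper quartile scaling. For 23 members, 24 alternatives in the 2 comparisons against WT gave 1104 values. Of these, 1007 kept their direction and their side of the threshold, 49 lost a call, 20 gained one and 28, none called in either fit, changed sign. In DKO against WT, log2 fold changes that changed sign were, for IFIT3B, -0.18 with WT mouse 11, -0.040 with at least 10 counts in every library, -0.034 with the deposited pseudocounts, -0.25 with library totals and -0.10 with upper quartile scaling. They were -0.045 for IRF9, -0.12 for DHX58 and -0.13 for IFIT3 with library totals, and 0.0066 with the deposited pseudocounts and 0.0025 with limma-voom for TRIM25. In IL10RAKO against WT, TRIM25 had -0.12 with WT mouse 11, -0.23 with library totals and -0.0190 with upper quartile scaling. Leaving out 1 mouse gave -0.23 to 0.31 for TRIM25 in IL10RAKO mice, and in DKO mice -0.16 to 0.19 for TRIM25, -0.11 to 0.19 for IFIT3B, -0.072 to 0.35 for IFIT3 and -0.19 to 0.10 for BST2. Against WT, the signs of uncalled differences of IRF9, DHX58, EIF2AK2, TRIM25, IFIT3, IFIT3B, ADAR, TRIM30A and PHF11D depended on the scaling.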
